A study of Mus musculus with 6 samples.

Results

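The basement membrane is the thin protein sheet on which endothelial cells sit and which wraps each muscle fibre, fat cell and Schwann cell. This account follows 10 genes of that sheet: the type IV collagen chains Col4a1 and Col4a2, the sheet-associated collagens Col15a1 and Col18a1, the laminin chains Lama2, Lama4, Lamb1 and Lamc1, the linker Nid1 and the heparan sulfate proteoglycan Hspg2. They form a list of gene names drawn up with earlier results of these data known, and were matched by symbol to the deposited gene table. Each of the 10 matched a row of the table, which lists 32286 features.

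All mice were Cdh5-CreERT2:R26R-tdTomato, a line in which a recombinase driven by the Cdh5 promoter can switch on a red reporter in endothelial cells. In the CLL group (3 libraries) clodronate liposomes, which are taken up by phagocytes and kill them, were injected into a vein, and the SHAM group (3 libraries) received liposomes filled with PBS. Injections were given 1 day before and 2 days after cardiotoxin injury, and the quadriceps was taken 5 days after it, so every library comes from injured muscle and none from an uninjured one. The single-cell 3′ libraries are labelled as biological replicates, and neither age nor sex is stated in the labels. The ablation is of cells that take up liposomes, and the labels do not say how complete it was.

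In a basement membrane, laminin trimers bind cell-surface integrins and dystroglycan and form a first polymer. A type IV collagen network is laid over it, and nidogen and perlecan, the product of Hspg2, tie both together. In muscle the trimer with the laminin α2 chain (Lama2) anchors the fibre, and loss of that chain causes a congenital muscular dystrophy. The α4 chain (Lama4) is the laminin of vessels and nerve, and β1 and γ1 (Lamb1, Lamc1) are shared by both trimers. Collagens XV and XVIII carry glycosaminoglycan chains, and a fragment of collagen XVIII is known as endostatin.

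Col4a1 and Col4a2 lie head to head on mouse chromosome 8 and are known to share their promoter. In the GENCODE annotation of GRCm38 (mm10), Col4a1 spans chr8:11198423-11312826 on the minus strand and Col4a2 spans chr8:11312805-11449287 on the plus strand. Their RefSeq start sites (GRCm38.p6) lie 21 bases apart. The windows from 250 bases before to 50 bases after each start are shown because these 2 genes moved together in most comparisons that follow. Capitals mark the 78 bases that both windows hold (chr8:11312777-11312854), read on opposite strands, each 5′ to 3′.
Col4a1, chr8:11312777-11313076, minus strand: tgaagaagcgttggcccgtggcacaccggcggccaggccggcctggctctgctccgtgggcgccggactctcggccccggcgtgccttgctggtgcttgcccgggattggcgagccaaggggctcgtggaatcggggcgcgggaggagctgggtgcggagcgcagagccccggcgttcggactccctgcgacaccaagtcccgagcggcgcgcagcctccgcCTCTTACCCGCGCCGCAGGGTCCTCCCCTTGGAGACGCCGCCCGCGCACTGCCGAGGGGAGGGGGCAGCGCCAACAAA
Col4a2, chr8:11312555-11312854, plus strand: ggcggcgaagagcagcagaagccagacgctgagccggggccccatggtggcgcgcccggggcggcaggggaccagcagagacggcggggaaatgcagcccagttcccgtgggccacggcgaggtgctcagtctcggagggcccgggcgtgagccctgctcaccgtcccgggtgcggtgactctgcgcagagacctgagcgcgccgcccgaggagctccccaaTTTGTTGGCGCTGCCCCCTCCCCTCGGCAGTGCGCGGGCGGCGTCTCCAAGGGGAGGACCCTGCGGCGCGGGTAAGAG
The shared stretch was 73.1% G and C, against a median of 52.7% over all promoter windows. The motif CCAAT, searched on both strands, was found once in each window and in 37.4% of 32851 RefSeq windows of the same length. The motif GGGCGG was found 1 time in the Col4a1 window and 3 times in the Col4a2 window, and in 35.7% of all windows. TATAAA was in neither window and in 13.6% of all windows, and CACGTG was in neither and in 7.15% of all. RefSeq windows were on hand for 8 of the 10 genes, leaving out Lama4 and Lamc1. The other genes lie apart from each other: Col15a1 at chr4:47208161-47313167, Hspg2 at chr4:137468769-137570630, Lamc1 at chr1:153218922-153332786, Lamb1 at chr12:31265234-31329644, and Nid1 at chr13:13437551-13512269. Lama2 (chr10:26980036-27619758), Lama4 (chr10:38965515-39110188) and Col18a1 (chr10:77052178-77166548) share a chromosome without adjoining.

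Libraries held 58625420 to 75130565 UMIs (counted RNA molecules) in CLL and 23873416 to 94841003 in SHAM. Filtering left 3531 to 9852 cells per CLL library and 1844 to 19178 per SHAM library. The median kept cell carried 13818, 1629 and 9067 UMIs in the CLL libraries, replicate 1 first, against 2752, 9354 and 880 UMIs in the SHAM libraries, so CLL replicate 2 and SHAM replicate 3 stood apart as shallow. In SHAM replicate 3, 73.9% of kept cells lay in clusters without a name, against 7.46% to 15.8% in the other libraries. Any pair of libraries shared at most 97 barcodes. The 10 genes were withheld from clustering, so that no class was built from them, and classes carry "-like" since they were named from fixed marker lists. All 16 endothelial markers were highest in endothelial-like cells, and so were 13 of 14 mural markers in mural-like cells (not Des), 13 of 15 fibroblast markers in fibroblast/tenocyte-like cells (not Pi16 and Ly6a) and all 12 myogenic markers in myogenic-like cells. The CLL libraries yielded 39, 194 and 52 endothelial-like cells, against 2544, 279 and 180 from the SHAM libraries, and 20, 47 and 14 mural-like cells, against 782, 97 and 36. These small CLL numbers limit every statement on vascular cells.

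Summed over all kept cells of a library, the 4 collagen genes were lower in CLL, by 2.06 to 2.55-fold, while the laminins, Nid1 and Hspg2 did not pass the test. Levels are CPM, a gene's UMIs scaled to a library sum of 1e6, and each fold is the log2 ratio of CLL to SHAM from edgeR's quasi-likelihood test, with standard error (SE) and Benjamini-Hochberg adjustment over all genes tested. Col4a2 had 93.2, 185 and 96.96 CPM in CLL, against 328, 379 and 288 CPM in SHAM (log2 fold -1.35 ± 0.26, adjusted p = 0.00512). Col4a1 had 178, 388 and 187 CPM in CLL, against 676, 740 and 501 CPM in SHAM (-1.29 ± 0.30, adjusted p = 0.0117). For both type IV chains CLL replicate 2 was the highest of its group and still below every SHAM library. Col15a1 had 52.4, 84.8 and 55.6 CPM in CLL and 171, 180.1 and 131 CPM in SHAM (-1.26 ± 0.19, adjusted p = 0.00204). Col18a1 had 49.3, 34.5 and 48.98 CPM in CLL and 102, 83.2 and 102 CPM in SHAM (-1.04 ± 0.16, adjusted p = 0.00222). The groups did not overlap for any of the 4 collagens, and 29.1% of all genes were lower in CLL without overlap. Of all 16666 genes tested, 19.0% were lower and 17.6% higher in CLL, so 4 of 10 stands above the background without being rare for these libraries.

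The other 6 genes overlapped between the groups in this sum. Their log2 folds lay between -0.25 (Lama2, adjusted p = 0.255) and 0.23 (Lama4, adjusted p = 0.17), with Lamb1 at 0.15, Lamc1 at -0.03, Nid1 at -0.05 and Hspg2 at 0.00. Nid1, for example, had 273, 298 and 229 CPM in CLL and 269.8, 348 and 249 CPM in SHAM. A level in this sum mixes the number of cells of a type with the RNA per cell, and these cannot be told apart in it. When endothelial-like and mural-like cells were left out of the sums, an alternative chosen after seeing the data, the folds of Col4a1, Col4a2 and Col15a1 shrank to -0.30 (adjusted p = 0.507), -0.39 (0.33) and -0.46 (0.174), and Col18a1 remained called at -0.74 (0.0116).

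**Figure D1:**
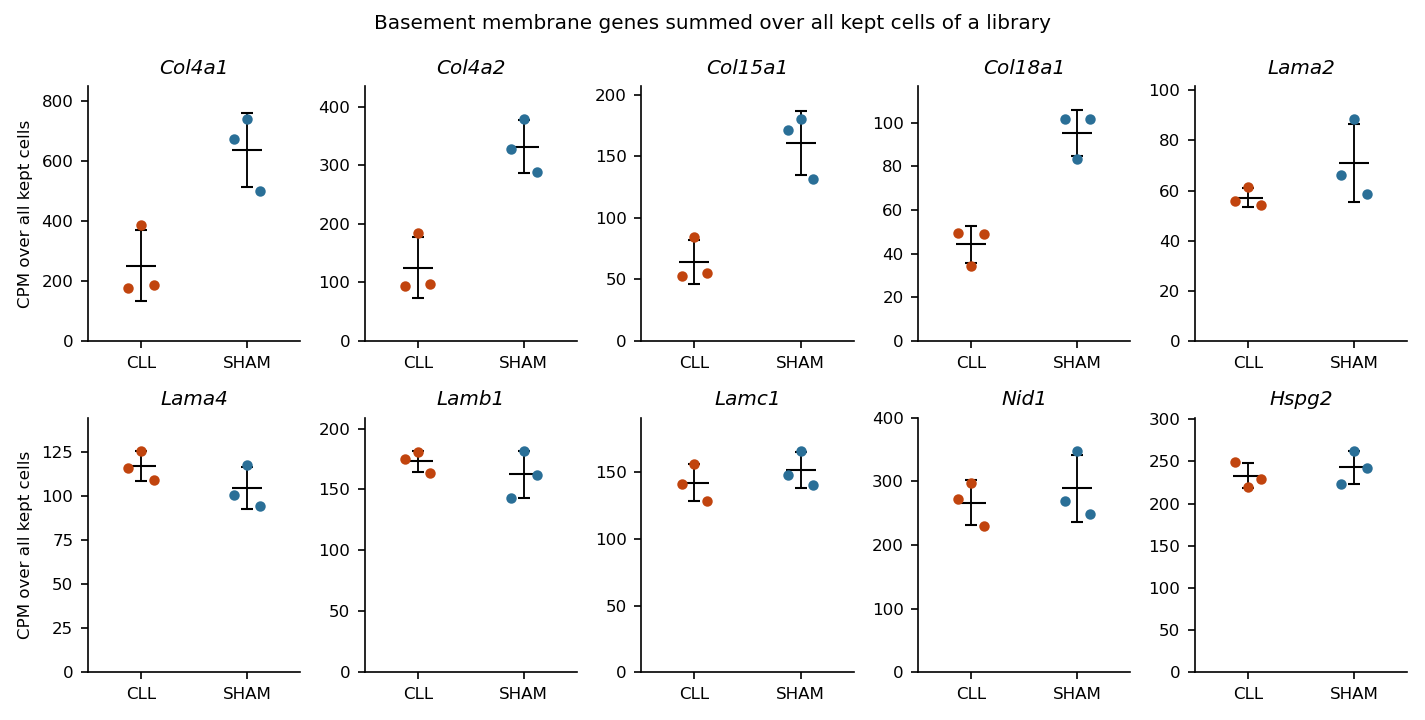
Level of each gene summed over all kept cells, in CPM on a linear axis that starts at 0; points are libraries, with 3 CLL left and 3 SHAM right, and lines are the mean ± SD. Col4a1, Col4a2, Col15a1 and Col18a1 separate the groups, and the other 6 genes overlap.

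Which cells held these transcripts differed between the groups. Of the UMIs of all 10 genes together, endothelial-like cells held 1.39%, 2.73% and 1.50% in CLL, against 38.7%, 29.7% and 34.0% in SHAM (mean ± SD, 1.87 ± 0.742% and 34.1 ± 4.49%). Fibroblast/tenocyte-like cells held 80.3 ± 3.69% in CLL and 36.4 ± 11.4% in SHAM, and mural-like cells 0.613 ± 0.450% and 5.66 ± 1.33%. None of these shares overlapped between the groups. The cell numbers differed too: 1.34 ± 0.554% of the kept CLL cells and 10.4 ± 6.56% of the kept SHAM cells were endothelial-like, and 51.5 ± 7.24% and 13.8 ± 8.08% were fibroblast/tenocyte-like (n = 3 each).

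By gene, endothelial-like cells held 4.79 ± 0.784% of the Col4a1 UMIs in CLL and 52.0 ± 5.76% in SHAM, and for Col4a2 and Col15a1 the shares were close to these (4.43 ± 0.721% and 3.88 ± 1.05% in CLL, 52.0 ± 5.31% and 46.6 ± 7.85% in SHAM). Of Hspg2, the core protein of perlecan, they held 1.09 ± 0.610% in CLL and 27.6 ± 1.56% in SHAM. Nid1 and Lama2 were held mainly by fibroblast/tenocyte-like cells in both groups: 90.3 ± 3.53% of Nid1 UMIs in CLL and 63.8 ± 12.1% in SHAM, and 76.5 ± 4.62% of Lama2 UMIs in CLL and 49.7 ± 14.8% in SHAM. Col18a1 stood out in that myogenic-like cells held 46.3%, 21.2% and 54.3% of its UMIs in CLL, against 18.4%, 12.5% and 11.95% in SHAM. Myogenic-like cells also held 15.9 ± 6.84% of Lama2 UMIs in CLL and 19.3 ± 4.19% in SHAM, where the groups overlapped. Adipocyte-like cells, led by Car3, Cfd and Adipoq, held 10.1 ± 8.83% of the Col4a1 UMIs in CLL and 0.0759 ± 0.0728% in SHAM, and 14.1 ± 11.2% and 0.198 ± 0.260% of those of Col15a1. For both genes that was more than the endothelial-like share of every CLL library. The CLL libraries yielded 18, 625 and 23 such cells, against 4, 4 and 1 from the SHAM libraries, too few for a test between the groups. Unnamed clusters held 2.93 ± 0.339% of all member UMIs in CLL and 9.94 ± 6.27% in SHAM.

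**Figure D2:**
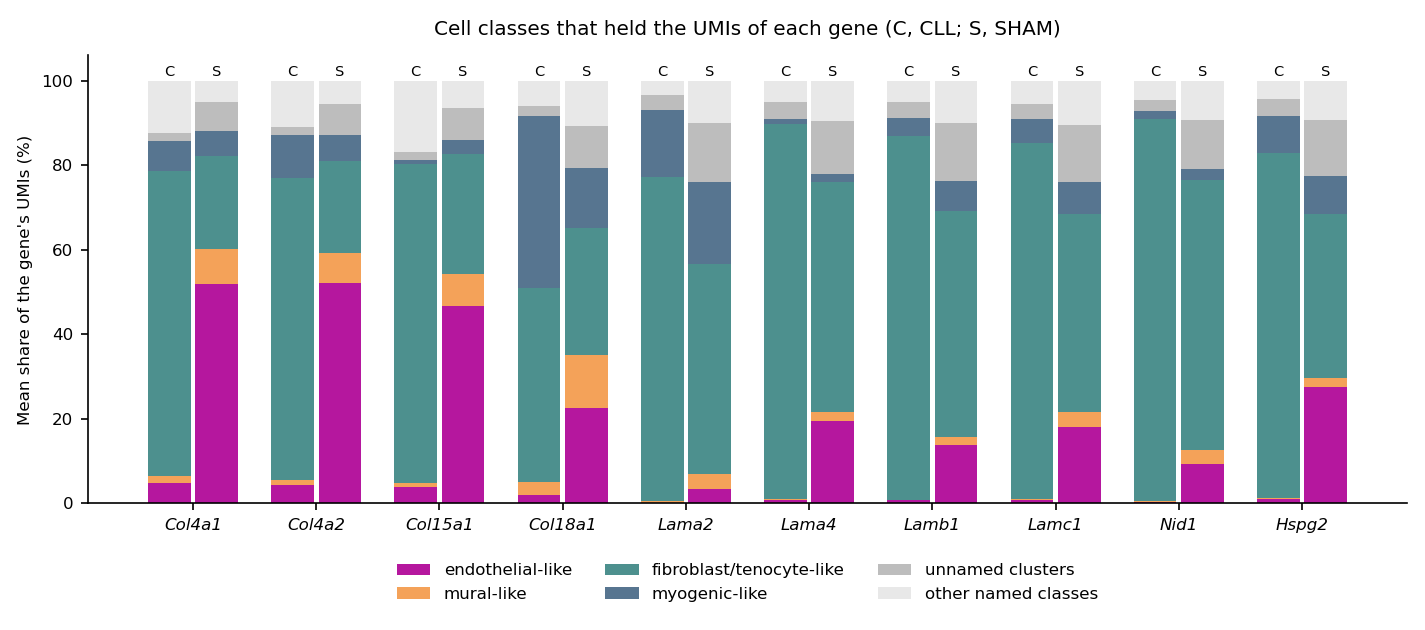
Mean share (%) of each gene's UMIs by the cell class that held them, as stacked bars from 0 to 100, with the mean of 3 CLL libraries (C) left of the mean of 3 SHAM libraries (S) for each gene. The endothelial-like part of the Col4a1 bar is 4.79% in CLL and 52.0% in SHAM.

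Per cell class, the collagens were highest in vascular cells, and the laminin α chains split between classes. Over all 6 libraries, Col4a1 averaged 2793 ± 405 CPM in endothelial-like, 1699 ± 731 in mural-like, 381 ± 114 in glial-like, 376 ± 187 in fibroblast/tenocyte-like, 256 ± 280 in myofibre-like and 251 ± 112 in myogenic-like cells (SD, n = 6). It averaged 52.0 ± 37.4 CPM in macrophage/monocyte-like and 41.1 ± 26.6 CPM in dendritic-like cells. Endothelial-like cells exceeded mural-like cells, and mural-like exceeded glial-like cells, in 6 of 6 libraries. Col4a2 kept the order endothelial-like (1396 ± 291 CPM), mural-like (761 ± 267 CPM) and glial-like (229.8 ± 65.7 CPM), as did Col15a1 for endothelial-like (617 ± 121 CPM) and mural-like cells (378 ± 173 CPM), followed by fibroblast/tenocyte-like cells (115 ± 59.6 CPM).

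Col18a1 was highest in mural-like cells (507 ± 161 CPM), followed by glial-like (224 ± 144 CPM), endothelial-like (201 ± 58.4 CPM) and myogenic-like cells (153 ± 33.9 CPM), and stood at 64.7 ± 41.6 CPM in fibroblast/tenocyte-like cells. Lama2, the muscle laminin chain, was at like levels in mural-like (109.9 ± 19.4 CPM), myogenic-like (109 ± 25.2 CPM) and fibroblast/tenocyte-like cells (95.7 ± 42.6 CPM), and at 23.6 ± 13.4 CPM in endothelial-like cells. Lama4, the vessel chain, ran the other way, with 203 ± 40.9 CPM in endothelial-like, 179 ± 33.5 CPM in fibroblast/tenocyte-like and 16.4 ± 9.57 CPM in myogenic-like cells. Lama2 thus made up 87.2 ± 6.09% of the Lama2 and Lama4 UMIs of myogenic-like cells, 55.3 ± 11.1% in mural-like, 33.7 ± 5.48% in fibroblast/tenocyte-like and 9.87 ± 3.13% in endothelial-like cells.

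The shared chains were flatter over the classes. Lamb1 averaged 265 ± 55.4 CPM in fibroblast/tenocyte-like, 243 ± 44.8 CPM in endothelial-like and 89.9 ± 25.0 CPM in myogenic-like cells. Lamc1 averaged 236 ± 30.1, 223 ± 53.3 and 215 ± 48.4 CPM in endothelial-like, mural-like and fibroblast/tenocyte-like cells, which cannot be ordered beyond their spread. Nid1 was highest in fibroblast/tenocyte-like cells (507 ± 183 CPM), above mural-like cells (318 ± 93.2 CPM) in 6 of 6 libraries. Hspg2 was highest in endothelial-like cells (578 ± 108 CPM), above glial-like (350.0 ± 70.0 CPM) and fibroblast/tenocyte-like cells (307 ± 45.6 CPM). Neighbouring classes in the order of each gene were compared with a two-sided exact sign-flip permutation test over the 6 libraries. None of the 70 pairs passed after adjustment: the smallest p this design allows is 0.03125, and the smallest adjusted p was 0.0994. For 3 pairs of classes a fit in edgeR, blocked by library, was also made.

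In that fit, endothelial-like over fibroblast/tenocyte-like cells had 5 members higher and 2 lower, where 24.4% of 11225 genes were higher and 29.4% lower. Those higher were Col4a1 (log2 fold 2.91 ± 0.24, adjusted p = 2.21e-09), Col4a2 (2.87 ± 0.18), Col15a1 (2.44 ± 0.22), Col18a1 (1.63 ± 0.29) and Hspg2 (0.81 ± 0.12). Lama2 (-2.34 ± 0.25, adjusted p = 7.77e-08) and Nid1 (-1.32 ± 0.16) were lower, and Lama4 (0.05), Lamb1 (-0.25) and Lamc1 (0.05) did not pass. Every collagen was thus higher in the vessel-lining class, and the fibre laminin and the linker were higher in the stromal class.

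Mural-like over endothelial-like cells had 3 members higher and 6 lower, where 16.6% of genes were higher and 13.8% lower. Lama2 (2.34 ± 0.28, adjusted p = 1.18e-06), Col18a1 (1.32 ± 0.31) and Nid1 (0.53 ± 0.17) were higher in mural-like cells. Hspg2 (-1.65 ± 0.13), Lama4 (-1.13 ± 0.18), Lamb1 (-1.02 ± 0.18), Col4a2 (-0.95 ± 0.18), Col4a1 (-0.83 ± 0.23) and Col15a1 (-0.79 ± 0.22) were lower, and Lamc1 (-0.15 ± 0.16) did not pass. Of the α laminins, Lama4 was thus higher in endothelial-like and Lama2 in mural-like cells. Mural-like over fibroblast/tenocyte-like cells had 4 higher and 4 lower, where 15.0% of genes were higher and 18.3% lower. All 4 collagens were higher, led by Col18a1 (2.95 ± 0.30), with Col4a1 at 2.08, Col4a2 at 1.92 and Col15a1 at 1.66, and Lamb1 (-1.27), Lama4 (-1.08), Hspg2 (-0.85) and Nid1 (-0.79) were lower. Lama2 (-0.01) and Lamc1 (-0.10) did not pass.

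**Figure D3:**
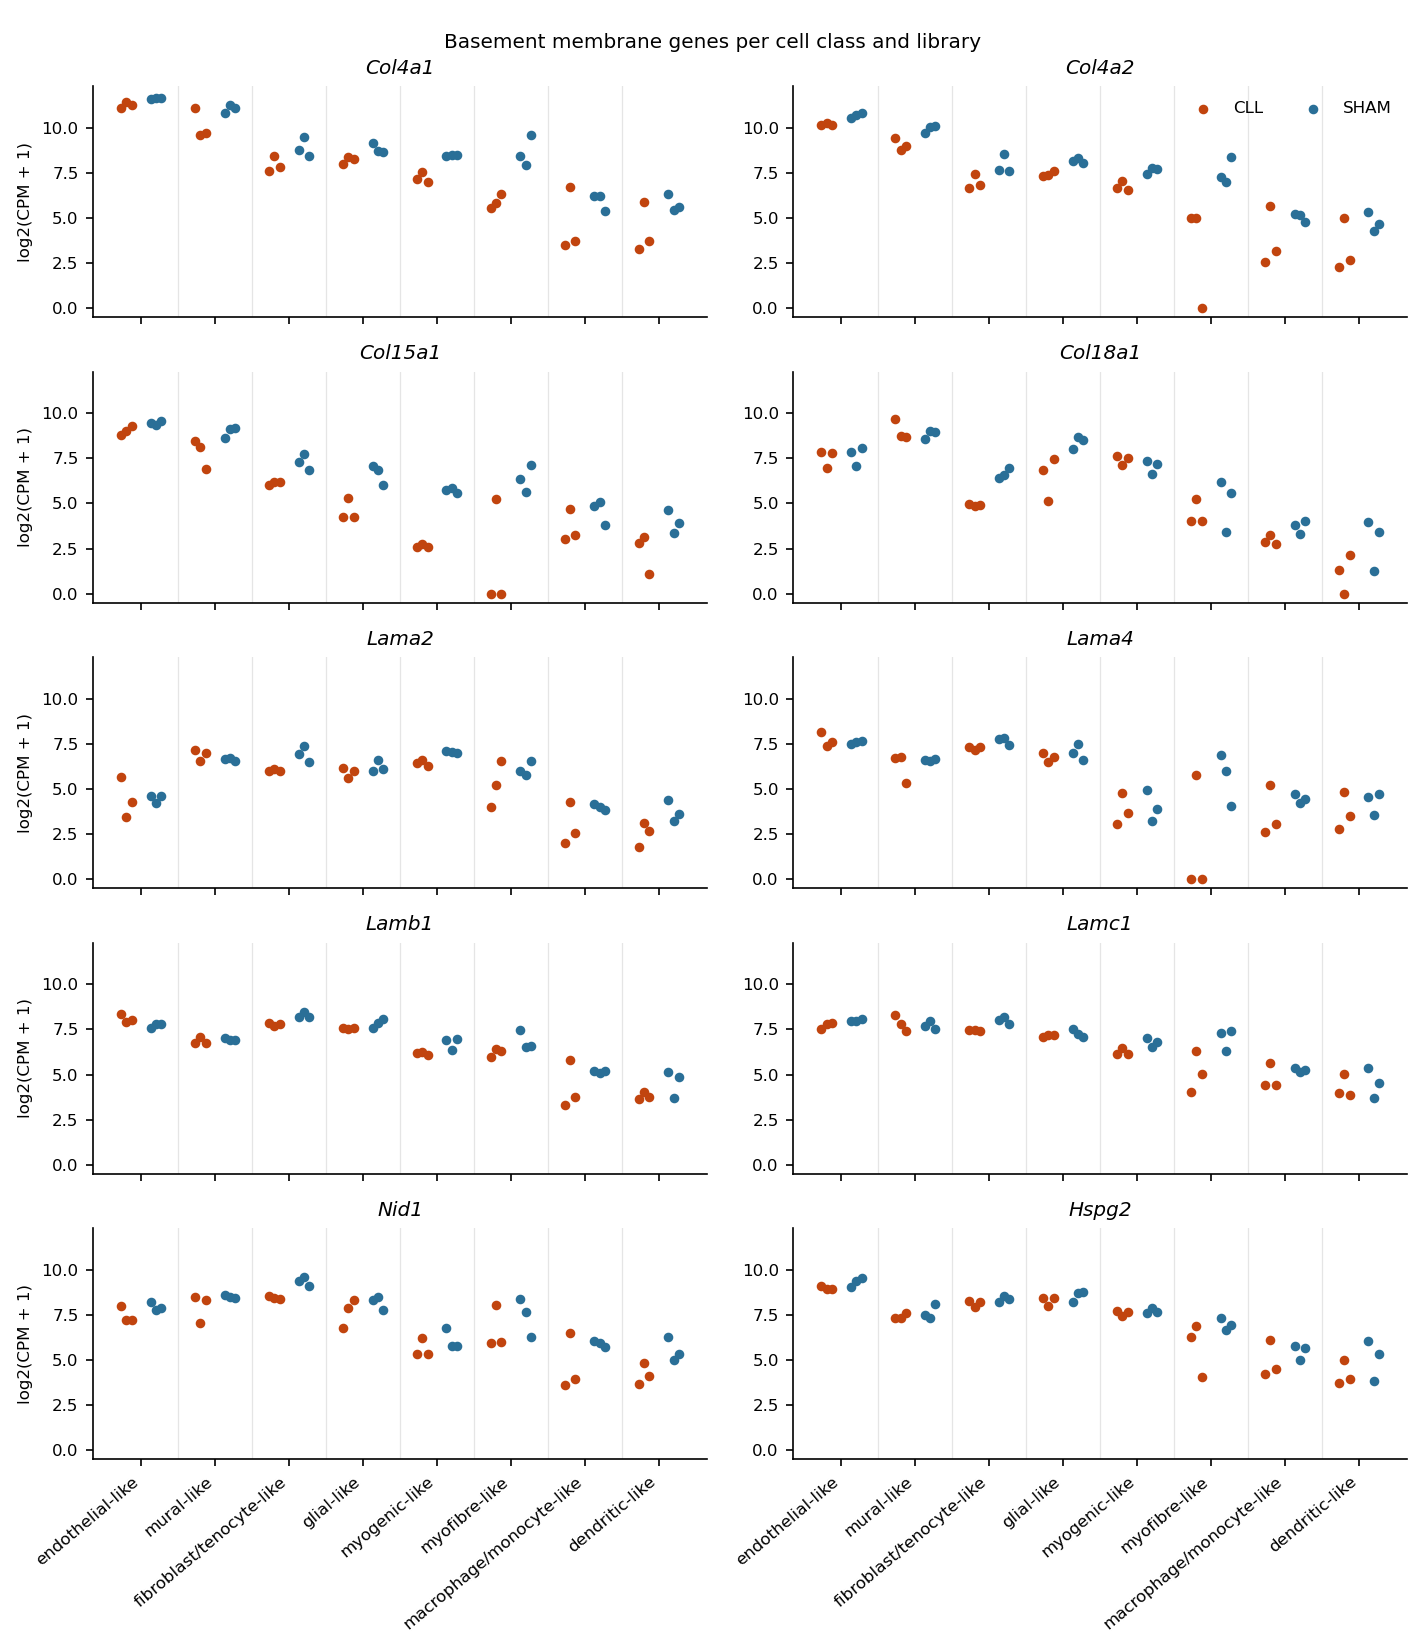
Level of each gene in 8 cell classes as log2(CPM + 1), with 1 point per library, CLL left and SHAM right within each class. Col4a1 and Col4a2 are highest in endothelial-like cells, Col18a1 in mural-like cells, and Col15a1 of myogenic-like cells lies lower in all 3 CLL libraries.

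The low levels in immune classes were set against T/NK-like cells, which should lack these genes. That class held 53, 4 and 61 cells in the CLL libraries and 318, 67 and 17 in the SHAM libraries. Its means weigh each library alike and so rest partly on few cells. With each cell thinned to 1000 UMIs, 78.4 ± 4.60% of the CLL endothelial-like cells and 82.5 ± 4.06% of the SHAM ones held a Col4a1 UMI (84.5% and 91.3% unthinned). Among macrophage/monocyte-like cells the share was 3.43 ± 3.81% in CLL and 6.37 ± 1.16% in SHAM (11.1% and 21.4% unthinned), and among T/NK-like cells 0.629 ± 1.09% in CLL and 5.93 ± 5.92% in SHAM (7.68% and 24.0% unthinned). The shares of both classes differed by less than the larger SD, so the macrophage/monocyte-like level of Col4a1 is not read as expression. For some other genes the gap was wider than that. In CLL, Lamc1 was found in 3.95 ± 1.92% of macrophage/monocyte-like and 0.629 ± 1.09% of T/NK-like cells, and Col15a1 in 1.81 ± 1.30% and 0%. In SHAM, Lama2 was found in 1.53 ± 0.320% and 0.254 ± 0.441%. Whether these are expression was not tested. Median UMIs per cell were 1736 in CLL and 2466 in SHAM for endothelial-like cells, 6256 and 2837 for macrophage/monocyte-like cells and 4221 and 2088.5 for T/NK-like cells. Thinning left out 65 CLL and 403 SHAM endothelial-like cells, 192 and 475 macrophage/monocyte-like cells and 1 and 59 T/NK-like cells. Myogenic-like cells were above that background for Lama2, with a UMI in 7.57 ± 1.24% of cells in CLL and 13.4 ± 1.07% in SHAM, against 0.556 ± 0.962% and 0.254 ± 0.441% of T/NK-like cells.

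As a description of which genes followed the members over the 48 class-by-library sums, the highest Pearson correlations of log2(CPM + 1) were listed among 8591 genes. The points share libraries and differ in depth, so no p is given. For Col4a1 the nearest genes were Ehd2 (r = 0.949), Col4a2 (0.944) and Gng11 (0.943), and for Col4a2 they were Cavin1 (0.968), Col4a1 and Epn2 (0.927). For Col15a1 they were Sparcl1 (0.941), Snrk (0.941) and Col4a2 (0.885), and for Col18a1 B230219D22Rik (0.918), Timp3 (0.901) and Jam3 (0.888). The stromal members had other neighbours: Olfml2b (0.908), Nfix (0.897) and Bmpr1a (0.897) for Lama2, and Htra1 (0.91), Sparc (0.898) and Ecm2 (0.892) for Nid1. Lama4 was nearest to Hdgfl3 (0.898), Hdac7 (0.875) and Cxcl12 (0.868), a chemokine. Lamb1 was nearest to Nfib (0.938), Sparc (0.934) and Wwtr1 (0.925), Lamc1 to Nfib (0.928), Amotl1 (0.918) and Npdc1 (0.913), and Hspg2 to Nfib (0.931), Lamb1 (0.922) and Nckap1 (0.917). Among the members themselves the lowest correlation was that of Lama2 with Lama4 (0.342).

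In endothelial-like cells none of the 10 genes passed between CLL and SHAM, where 0.354% of 9328 genes were lower and 0.0965% higher. Col4a1 had 2181, 2735 and 2472 CPM in CLL, against 3035, 3197 and 3139 CPM in SHAM (log2 fold -0.19 ± 0.22, adjusted p = 0.873). Col4a2 had 1119.97, 1207 and 1122 CPM in CLL, against 1469, 1657 and 1799 CPM in SHAM (-0.36 ± 0.22, adjusted p = 0.686), and Col15a1 435, 521 and 630 CPM against 709, 644 and 766 CPM (-0.27 ± 0.21, adjusted p = 0.78). In CPM every CLL library lay below every SHAM library for these 3 collagens and for Lamc1, 4 of 10 genes where 15.4% of all genes tested did so, but the folds, which are scaled by TMM, were within 2 SE of 0. Lamb1 went the other way, with 323, 243 and 255 CPM in CLL and 193, 219 and 223 CPM in SHAM (0.51 ± 0.22, unadjusted p = 0.0342, adjusted p = 0.493). It was the 1 gene of the 10 with an unadjusted p under 0.05 in these cells, where 843 of 9328 genes had one. The remaining folds were -0.002 for Col18a1, 0.20 for Lama2, 0.29 for Lama4, -0.13 for Lamc1, -0.30 for Nid1 and -0.20 for Hspg2, each overlapping but for Lamc1. DESeq2 called none of the 10 either. A p that misses the threshold does not show equal levels, and the class held as few as 39 cells in a CLL library.

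Marker genes of other cells moved in the same endothelial-like sums. Mural markers (14 genes) summed to 182 to 191 CPM in CLL and 1246 to 1706 CPM in SHAM. By the test 10 of 14 were lower in CLL, where 0.354% of all genes tested were. Kcnj8, Higd1b and Gucy1b1 were at 0 in CLL. They could thus pass the low-count filter only through SHAM and are no evidence of a drop. Macrophage/monocyte markers summed to 319 to 587 CPM in CLL and 1259.5 to 2548 CPM in SHAM, with 5 of 14 tested lower. Fibroblast markers overlapped, at 3663 to 6149 CPM in CLL and 2595 to 6342 CPM in SHAM. Lymphatic endothelial markers summed to 2411, 24.3 and 86.7 CPM in CLL and 46.9 to 343 CPM in SHAM, so that CLL replicate 1 stood apart. Their part in the member levels was not tested.

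In mural-like cells, the contractile cells around small vessels, none of the 10 genes passed and none of 4510 genes did (0% in each direction). By unadjusted p under 0.05 there were 2 of the 10, where 461 of 4510 genes had such a p. They were Col4a2 with 691, 428 and 512 CPM in CLL against 824, 1026 and 1083 CPM in SHAM (-0.78 ± 0.25, adjusted p = 0.317), and Col15a1 with 346, 277 and 118 CPM against 400.1, 549 and 580 CPM (-0.95 ± 0.34, adjusted p = 0.354). Both collagens were lower in every CLL library, 2 of 10 genes where 11.5% of all genes were, so this count is near the background. Col4a1 (-0.72 ± 0.38) overlapped because CLL replicate 1 had 2163 CPM, next to 755 and 827 CPM in the other CLL libraries and 1819 to 2443 CPM in SHAM. Col18a1, highest in this class, had 819.6, 420 and 414 CPM in CLL and 382, 520 and 488 CPM in SHAM (0.32 ± 0.30). The laminins, Nid1 and Hspg2 had folds from -0.37 (Nid1) to 0.33 (Lama2), with Lama4 at -0.07, Lamb1 at -0.01, Lamc1 at 0.21 and Hspg2 at -0.18. DESeq2 called none of the 10. Leaving the low-count filter off gave 1 call, where 126 of 16576 genes were lower and 40 higher. The smallest CLL library held 14 of these cells.

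Fibroblast/tenocyte-like cells, the matrix producers and by far the largest source of these transcripts in CLL, had 6 of 10 genes lower in CLL and none higher, where 12.9% of 14532 genes were lower and 11.3% higher. The members' median log2 fold was -0.83, beside -0.02 over all genes tested. Col18a1 had 30.4, 27.6 and 29.0 CPM in CLL, against 83.2, 93.0 and 125 CPM in SHAM (-1.68 ± 0.16, adjusted p = 0.000269). Col15a1 had 62.9, 71.2 and 72.9 CPM in CLL, against 157, 213 and 115 CPM in SHAM (-1.12 ± 0.21, adjusted p = 0.00515). In both the CLL libraries lay close together and the SHAM libraries spread widely above them. Nid1 had 374, 352 and 330.4 CPM in CLL, against 662, 768 and 555 CPM in SHAM (-0.80 ± 0.15, adjusted p = 0.00557), and Lama2 62.0, 68.6 and 61.9 CPM against 123, 168 and 90.3 CPM (-0.88 ± 0.21, adjusted p = 0.014). Lamc1 (-0.43 ± 0.13, adjusted p = 0.0395) and Col4a2 (-0.89 ± 0.28, adjusted p = 0.0458) passed narrowly.

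Lamb1 (-0.40 ± 0.13, adjusted p = 0.0521) and Col4a1 (-0.86 ± 0.29, adjusted p = 0.0592) narrowly missed, as did, by more, Lama4 (-0.32 ± 0.13, adjusted p = 0.102). Hspg2 had 303, 244 and 291 CPM in CLL and 291, 379 and 335 CPM in SHAM (-0.15 ± 0.15, adjusted p = 0.487). Without overlap between the groups were 8 genes, all but Col4a1 and Hspg2, where 28.8% of genes were lower in CLL without overlap. Col4a1 overlapped through CLL replicate 2, at 348 CPM, and SHAM replicate 3, at 346 CPM. Col18a1, Col15a1 and Nid1 kept their calls whichever library was left out. Without CLL replicate 1, or without CLL replicate 3, these 3 were the only calls among the 10 genes. Beside these values, macrophage/monocyte markers in the same cells summed to 189 to 251 CPM in CLL and 347 to 869 CPM in SHAM, with 13 of 15 lower, and mural markers to 589 to 759 CPM in CLL and 408 to 508 CPM in SHAM, with 10 of 14 lower and 1 higher. Of all genes 12.9% were lower and 11.3% higher. The mural sum was thus higher in CLL while most of its genes were lower, so these markers gave no single direction. Endothelial markers summed to 81.8 to 99.2 CPM in CLL and 79.4 to 162 CPM in SHAM. What part these have in the member folds was not tested.

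The class was made of different clusters in the 2 groups. Cluster 2, led by Ecrg4, Ddah1, Csrp2, Sfrp1 and Cthrc1, held 55.7 ± 23.1% of the class in CLL and 12.7 ± 3.68% in SHAM. Cluster 7, led by Col8a1, Ndufa4l2 and Lox, held 24.1 ± 25.6% and 13.01 ± 5.31%, with 53.5% of the class in CLL replicate 2. Cluster 11, led by Clec3b, Abca8a, Apod and Dlk1, held 6.56 ± 4.13% in CLL and 59.6 ± 9.15% in SHAM. Each of the 10 genes was higher in cluster 11 than in cluster 2 in each of the 6 libraries. Nid1, for example, had 669, 629.8 and 648 CPM in CLL and 917, 960.4 and 733 CPM in SHAM in cluster 11, against 354, 347 and 320.02 CPM in CLL and 408, 374 and 248 CPM in SHAM in cluster 2.

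Tested within a cluster, an alternative chosen after seeing the data, most of the class-wide calls were not made, and fewer of all genes passed as well. Within cluster 2, where 1.21% of all genes were lower and 1.16% higher, only Col18a1 passed, with 25.3, 25.2 and 25.8 CPM in CLL, against 53.5, 57.6 and 78.4 CPM in SHAM (-1.24 ± 0.16, adjusted p = 0.00261). The folds of the other 9 genes were above 0 there, with Col4a1 at 1.10 (adjusted p = 0.221) and Nid1 at 0.04 (adjusted p = 0.945). Within cluster 11, where 1.18% of all genes were lower and 1.28% higher, Col15a1 (-0.97 ± 0.19, adjusted p = 0.0173) and Col18a1 (-0.995 ± 0.193, adjusted p = 0.0154) passed, and all 10 folds were negative. Within cluster 7 none passed, where 0.300% of all genes were lower and 0.814% higher, and Col18a1 was at -0.65 (adjusted p = 0.406). Col18a1 was the 1 member lower in every CLL library in each of the 3 clusters, and the share of all genes that were so was not counted. SHAM replicates 2 and 3 held 377 and 292 cells of the class. Of these 9.02% and 12.7% lay in cluster 2, and 6.90% and 16.4% in cluster 7, with 15 and 13 Col18a1 UMIs there. Such small SHAM sums limit what a call that is not made can show.

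**Figure D4:**
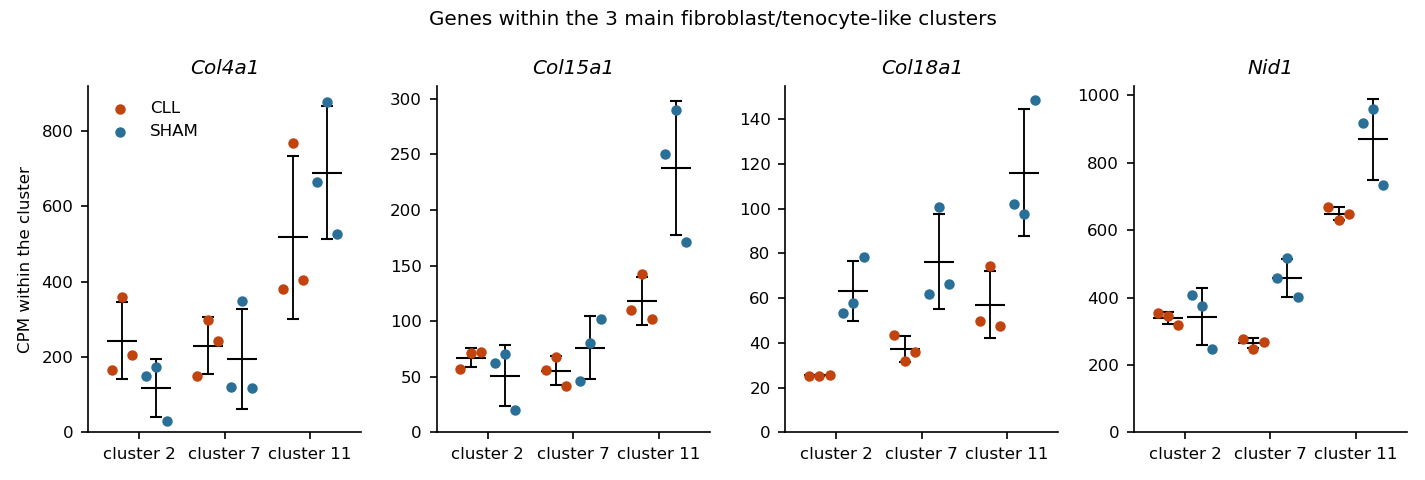
Levels of Col4a1, Col15a1, Col18a1 and Nid1 within fibroblast/tenocyte-like clusters 2, 7 and 11, in CPM on linear axes that start at 0; points are libraries, CLL left and SHAM right, with mean ± SD. Col18a1 is lower in every CLL library in each cluster, and Nid1 overlaps between the groups in cluster 2.

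Whether the fold between CLL and SHAM differed between endothelial-like and fibroblast/tenocyte-like cells was tested as an interaction in edgeR, blocked by library. Col18a1 passed: its log2 fold was 1.53 ± 0.28 higher in endothelial-like than in fibroblast/tenocyte-like cells (adjusted p = 0.0157), where 0.478% of 13603 genes were higher and 1.48% lower. In endothelial-like cells it had 230, 124 and 224 CPM in CLL and 231, 133 and 266 CPM in SHAM, which overlapped, while in fibroblast/tenocyte-like cells every CLL library lay below every SHAM library. The median over all genes of this interaction was -0.21, and with other size factors (RLE) it was -0.01 and Col18a1 was at 1.73 (adjusted p = 0.0107). Over all genes that change of scaling moved the calls to 81 higher and 58 lower, beside 65 higher and 202 lower. Leaving out CLL replicate 1 or CLL replicate 3 ended the call, at an adjusted p of up to 0.109. Lamb1 followed at 0.77 ± 0.20 (adjusted p = 0.0684), and the other 8 genes lay between -0.17 and 0.84 and did not pass.

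Myogenic-like cells, which cover satellite cells, myoblasts and a cluster led by sarcomere genes, had 3 of 10 genes lower in CLL and none higher, where 3.97% of 11419 genes were lower and 3.85% higher. The members' median log2 fold was -0.43, beside -0.01 over all genes. Col15a1 had 5.12, 5.66 and 5.13 CPM in CLL, against 52.1, 57.9 and 46.2 CPM in SHAM (log2 fold -3.17 ± 0.18, adjusted p = 0.000185). These were 36, 15 and 49 UMIs in CLL and 417, 140 and 121 UMIs in SHAM. The 3 libraries of each group lay close together, and the gap between the groups was wider than their spread. Col4a1 had 142, 185 and 126 CPM in CLL, against 338, 355 and 363 CPM in SHAM (-1.08 ± 0.18, adjusted p = 0.0112), and Col4a2 99.2, 129 and 93.2 CPM against 173, 218 and 209.8 CPM (-0.77 ± 0.19, adjusted p = 0.0409).

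Of the laminins in myogenic-like cells, Lama2 had 87.4, 95.8 and 77.4 CPM in CLL, against 136, 133 and 125 CPM in SHAM (-0.45 ± 0.14, adjusted p = 0.0865). Lamb1 (-0.44 ± 0.16) and Lamc1 (-0.41 ± 0.15) were also without overlap and not called, and Lama4, at 7.39 to 26.4 CPM in CLL and 8.27 to 30.0 CPM in SHAM, overlapped widely. Nid1 (-0.39 ± 0.30) and Hspg2 (0.01 ± 0.15) overlapped. Col18a1 was the 1 collagen with a positive fold, with 193, 141 and 180.5 CPM in CLL and 160.0, 97.6 and 143 CPM in SHAM (0.52 ± 0.17, adjusted p = 0.0999), and the groups overlapped. Lower without overlap were 6 of 10 genes, where 22.5% of all genes were. Col15a1 kept its call whichever library was left out, Col4a1 lost it without CLL replicate 3 (adjusted p = 0.0516), and Col4a2 lost it without CLL replicate 1, CLL replicate 3, SHAM replicate 2 or SHAM replicate 3. When the 10 genes were not withheld from clustering, a cluster of 1406 cells led by histone genes joined the class, and Col15a1 was no longer called (-0.41, adjusted p = 0.189).

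The class was made of 3 clusters in unequal parts. Cluster 6, led by Cdh15, Myf5, Asb5 and Pax7, the last a satellite cell factor, held 69.6%, 47.1% and 64% of it in CLL, against 81.6%, 76.7% and 79.1% in SHAM. Cluster 5, led by Tnnt2, Myog, Tnnc1, Myl4 and Actc1, scored highest for the myofibre list and was kept in this class because it also met the myogenic list. It held 20.8%, 51.3% and 26.4% in CLL, against 12.4%, 18.8% and 13.0435% in SHAM, without overlap. A cluster led by histone genes held the rest. Within cluster 5, where none of 8236 genes passed (0% in each direction), no member passed. Col15a1 had 4.03, 11.2 and 4.89 CPM in CLL there, against 27.2, 10.2 and 44.8 CPM in SHAM (-1.99 ± 0.57, unadjusted p = 0.00654, adjusted p = 0.278), and the groups overlapped, as they did for each of the 10 genes. It was the 1 member with an unadjusted p under 0.05, where 1018 of 8236 genes had one. The cluster comprised 76, 307 and 152 CLL cells, against 231, 25 and 15 SHAM cells. Within cluster 6, again chosen after seeing the data, Col15a1 had 4.65, 2.75 and 6.26 CPM in CLL, against 61.6, 73.3 and 54.9 CPM in SHAM (-3.52 ± 0.23, adjusted p = 1.04e-05). There 7 members were lower, where 8.56% of all genes were lower and 7.31% higher: Col4a1, Col4a2, Col15a1, Lama2 (-0.52), Lamb1 (-0.65), Lamc1 (-0.56) and Nid1 (-0.88), and Col18a1 was higher, with 217, 207 and 197 CPM in CLL against 168, 119 and 151 CPM in SHAM (0.62 ± 0.14, adjusted p = 0.00992). The 2 sheet-associated collagens thus moved in opposite directions in this cluster. Thinned to 1000 UMIs, a Col15a1 UMI was found in 0.668 ± 0.555% of myogenic-like cells in CLL and 6.24 ± 0.695% in SHAM (3.76% and 26.4% unthinned), against 0% and 2.15 ± 2.55% of T/NK-like cells. Endothelial markers in myogenic-like cells summed to 10.1 to 35.1 CPM in CLL and 24.8 to 102 CPM in SHAM. Of these 4 of 6 tested were lower, where 3.97% of all genes of the class were. Fibroblast markers summed to 3971 to 10129 CPM in CLL and 4324 to 8215 CPM in SHAM. The part of either marker set in the Col15a1 fold was not tested.

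**Figure D5:**
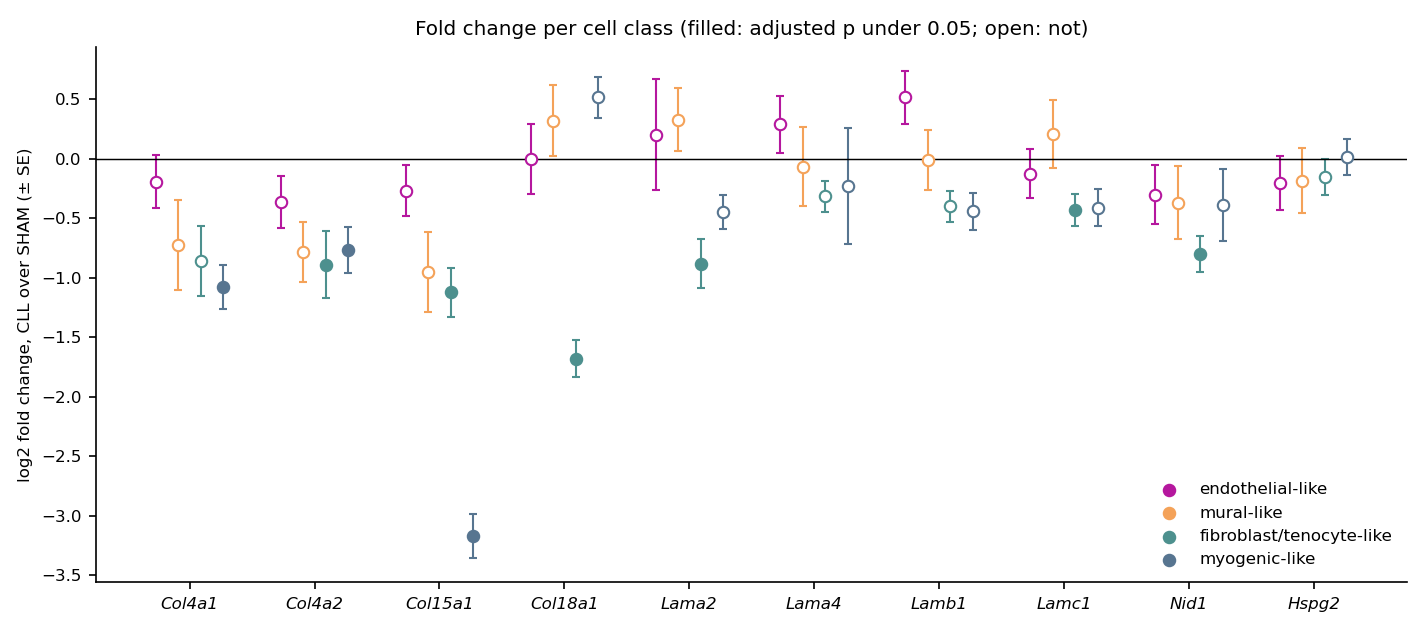
Log2 fold change of CLL over SHAM for each gene in 4 cell classes; points are edgeR estimates, bars are ± 1 SE, and filled points have an adjusted p under 0.05. Col15a1 in myogenic-like cells lies at -3.17 and Col18a1 in fibroblast/tenocyte-like cells at -1.68, and no point of endothelial-like or mural-like cells is filled.

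The other classes gave 1 call. Glial-like cells had none of 10 called (0.478% of 5235 genes lower, 0.229% higher), but the 4 collagens were lower in every CLL library, 4 of 10 where 11.9% of genes were. Col18a1 had 113, 34.2 and 174 CPM in CLL, against 258.8, 403 and 364 CPM in SHAM (-1.82 ± 0.43, adjusted p = 0.0947), and Col15a1 17.8, 38.5 and 18.3 CPM against 132, 113 and 63.2 CPM (-1.58 ± 0.40, adjusted p = 0.114). Col4a1 (-0.50) and Col4a2 (-0.60) were nearer to 0, the laminins lay between -0.22 (Lama2) and 0.04 (Lamc1), with Lama4 at -0.20 and Lamb1 at -0.14, and Nid1 (-0.31) and Hspg2 (-0.17) overlapped. DESeq2 called 1 of the 10, where it called 28 of 5235 genes lower and 24 higher. By edgeR 3 of the 10 had an unadjusted p under 0.05, where 585 of 5235 genes did. These sums rested on 20, 453 and 18 cells in CLL and 477, 51 and 39 in SHAM. Col15a1 would not have passed the low-count filter here on its CLL levels alone, so its fold is no evidence of a drop.

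In myofibre-like cells 5 genes had counts enough to test, and none of them, nor any of 1261 genes, passed (0% in each direction). Col4a1 had 45.8, 54.7 and 77.9 CPM in CLL, against 339, 244 and 775 CPM in SHAM (-2.96 ± 0.55, adjusted p = 0.174), and Col4a2 30.5, 30.4 and 0 CPM against 150.2, 127 and 325 CPM (-3.06 ± 0.66, adjusted p = 0.174). Both were lower in every CLL library, with unadjusted p of 0.000138 and 0.000472, and so was Lamb1. That made 3 of the 5 genes, where 4.60% of all genes tested were. These 3 passed the low-count filter only through their SHAM levels, so that count is no evidence of a drop. Col15a1, which was not tested, was lower in every CLL library as well. DESeq2 called 2 members lower, where it called 5 of 1261 genes lower and 1 higher. The type IV sums were of 17 and 7 UMIs over the 3 CLL libraries. Lamb1 (-0.77), Nid1 (-0.64) and Hspg2 (-0.81) did not pass, and Col15a1, Col18a1, Lama2, Lama4 and Lamc1 were too low to test.

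Macrophage/monocyte-like cells had no call (1.38% of 11769 genes lower, 0.841% higher), and all 10 folds were negative. The 10 genes together had 95.5, 503 and 116 CPM in CLL and 387, 343 and 305 CPM in SHAM, so that CLL replicate 2 was above every SHAM library and the other 2 CLL libraries below. The fibroblast markers of these cells were also highest in CLL replicate 2, with 1787, 10232 and 2239 CPM in CLL and 6183, 3072 and 4755 CPM in SHAM. Without CLL replicate 2 all 10 genes were called lower, where 7.28% of all genes were lower and 5.33% higher, and DESeq2 on all libraries called none. By edgeR on all libraries 1 of the 10, Col18a1, had an unadjusted p under 0.05, where 2313 of 11769 genes did. With all libraries the folds were -0.86 for Col18a1 (adjusted p = 0.0827), -0.97 for Col15a1, -0.69 for Col4a1, -0.79 for Col4a2, -0.86 for Lama2, -0.50 for Lama4, -0.55 for Lamb1, -0.36 for Lamc1, -0.77 for Nid1 and -0.38 for Hspg2.

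In dendritic-like cells Nid1 was called lower, 1 of 9 members tested, where 0.863% of 8226 genes were lower and 0.450% higher. It had 11.8, 27.2 and 16.4 CPM in CLL, against 75.8, 31.2 and 39.1 CPM in SHAM (-1.52 ± 0.33, adjusted p = 0.0418). With cells thinned to 1000 UMIs, 3.57 ± 2.95% of dendritic-like cells in CLL and 4.54 ± 1.90% in SHAM held a Nid1 UMI (7.48% and 21.8% unthinned), beside 2.44 ± 2.91% and 5.31 ± 5.77% of T/NK-like cells, differences smaller than the spread of either class. Median UMIs per dendritic-like cell were 5114 in CLL and 2342 in SHAM. The other 8 tested had negative folds, from -2.01 (Col15a1) through -1.86 (Col4a2), -1.70 (Col4a1), -1.55 (Lama2), -1.23 (Hspg2), -0.89 (Lamb1) and -0.81 (Lama4) to -0.54 (Lamc1), and Col18a1 was too low to test. Col15a1, Col4a2 and Lama2 would not have passed the low-count filter on their CLL levels alone, so their negative folds are no evidence of a drop. The call was lost without CLL replicate 1, CLL replicate 3, SHAM replicate 1 or SHAM replicate 3, each left out in turn.

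The ratio of the chains was compared between classes, since the 3′ capture of the 2 transcripts need not be equal. Col4a1 UMIs per Col4a2 UMI were 2.03 ± 0.192 in endothelial-like, 2.19 ± 0.540 in mural-like and 1.98 ± 0.123 in fibroblast/tenocyte-like cells. In myogenic-like cells the ratio was 1.43, 1.44 and 1.35 in CLL, against 1.95, 1.63 and 1.73 in SHAM, with no overlap. Lama2 as a share of Lama2 and Lama4 UMIs in fibroblast/tenocyte-like cells was 28.4%, 32.3% and 28.3% in CLL, against 36.5%, 42.8% and 34.1% in SHAM, also without overlap.

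Other genes of the basement membrane were read from lists chosen with earlier results of these data known, and their counts are descriptions. In fibroblast/tenocyte-like cells, of 24 other sheet components tested 9 were lower and 3 higher, beside the 12.9% lower and 11.3% higher over all genes, so that the count of higher ones is near the background. Those with the smallest p were Hmcn1, encoding hemicentin (9.80 ± 1.59 CPM in CLL and 34.2 ± 4.43 in SHAM, log2 fold -1.69), Fbln2, encoding fibulin-2 (957 ± 90.9 and 502 ± 52.4 CPM, 1.04), Nid2, the second nidogen (48.2 ± 4.79 and 116 ± 15.8 CPM, -1.16), and Ntn1 (4.62 ± 0.704 and 11.9 ± 0.718 CPM, -1.24). Both nidogens were thus lower. Of 13 receptors tested 3 were lower, Ddr2, a collagen receptor (-0.54), Sgce (-0.48) and the laminin-binding integrin chain Itga6 (-1.64), and Sgcb, a sarcoglycan, was higher (0.34).

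Of 21 genes for collagen modification and folding and for heparan sulfate synthesis, 9 were higher in CLL and none lower in these cells. They were led by the prolyl hydroxylase subunit P4ha2 (198 ± 22.8 CPM in CLL and 88.1 ± 12.26 in SHAM, 1.28 ± 0.13, adjusted p = 0.000436), the heparan sulfate sulfotransferase Hs6st1 (0.88), the lysyl hydroxylase Plod3 (0.58) and the prolyl hydroxylase P3h1 (0.59). Of 13 genes for degradation 6 were lower and none higher, led by the protease Adamts4 (32.0 ± 2.54 CPM in CLL and 85.3 ± 4.15 in SHAM, -1.30 ± 0.11, adjusted p = 0.00021), the cathepsins Ctsb (-0.76) and Ctss (-2.07), and the gelatinase Mmp9 (-1.44). In SHAM, Ctss had 36.4 ± 20.6 CPM in these cells and 855 ± 190 CPM over all kept cells, and Ctsb 579 ± 20.1 and 2527 ± 526 CPM. Macrophage/monocyte markers were also lower in these CLL sums, and the class was made of different clusters in the 2 groups. The part of either in the degradation folds was not tested. None of the 6 genes of dystroglycan glycosylation, which lets that receptor bind laminin, passed. List medians were -0.74 for other components, -0.30 for receptors, 0.31 for assembly and -0.46 for degradation, beside -0.02 over all genes.

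In myogenic-like cells 5 of 16 other components were lower, led by Frem1 (1.24 ± 0.344 CPM in CLL and 7.32 ± 1.57 in SHAM, -2.43), Ntn4 (-0.90) and Nid2 (-0.87), and 2 were higher, with Fbln2 among them (192 ± 75.8 CPM in CLL and 71.9 ± 30.3 in SHAM, 1.56). The collagen chaperone Serpinh1 (1078 ± 101.3 CPM in CLL and 717 ± 67.7 in SHAM, 0.74) and P3h1 (0.78) were the 2 of 21 assembly genes that were higher, none being lower. Adamts4 (-0.94), Mmp9 (0.491 ± 0.526 CPM in CLL and 7.90 ± 3.40 in SHAM, -3.37) and Adamts5 (-0.54) were the 3 of 11 degradation genes that were lower, and none of 11 receptors passed. These counts stand beside 3.97% of all genes lower and 3.85% higher. Frem1 and Mmp9 passed the low-count filter only through their SHAM levels, so their part in these counts is no evidence of a drop. Elsewhere Mmp9 was higher in macrophage/monocyte-like cells (96.6 ± 48.1 CPM in CLL and 3.06 ± 0.0979 in SHAM, 5.04). It was 1 of 11 degradation genes tested there, where 0.841% of all genes were higher. The call was lost without CLL replicate 3 and without SHAM replicate 3, where no gene of the class passed. It was also lost with the replicate number as a block, where no gene was called higher. That class was made of different clusters in the 2 groups, since cluster 15, led by F13a1, Cbr2 and Mrc1, held 44.2 ± 11.6% of it in CLL and 16.4 ± 4.46% in SHAM, and cluster 19, led by Cx3cr1 and H2-Aa, 10.8 ± 6.30% and 45.1 ± 18.004%. In dendritic-like cells Sulf2 (-1.10) and Mmp2 (-1.63) were lower, and Itga1, a collagen and laminin receptor chain, was lower in glial-like cells (29.3 ± 11.8 and 145 ± 7.41 CPM, -2.43). The Itga1 call was lost without CLL replicate 2, where no gene of the glial-like class passed. Itga1 would not have passed the low-count filter there on its CLL levels alone. No gene of these lists passed in endothelial-like or mural-like cells. Over all kept cells, where 19.0% of all genes were lower and 17.6% higher, 16 of 21 assembly genes were higher and none lower. Of 28 other components 10 were lower and 5 higher, of 15 receptors 4 were lower and 2 higher, of 14 degradation genes 5 were lower and 3 higher, and of 6 genes of dystroglycan glycosylation 2 were higher. The counts of higher genes outside the assembly list were few or near the background share. Tinagl1 had 3.67 ± 2.26 CPM in CLL and 51.2 ± 4.21 in SHAM (-3.76), and Bcam, a laminin receptor, 3.73 ± 0.454 and 27.2 ± 4.02 CPM (-2.80). These genes of the whole sum carry the same mixture of cell numbers and levels as the collagens.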

How the data were processed

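The deposited files are raw UMI counts per gene and cell barcode, made by the authors with Cell Ranger 6.1.2 on mm10, per the submitters' processing notes. No deposited barcode had fewer than 500 UMIs. From these counts, barcodes passed with 300 genes or more and no more than 15% of UMIs from mitochondrial genes, and scrublet removed 7660 doublets (0.8% expected per 1000 barcodes), leaving 46057 cells. Cells were clustered (scanpy 1.11.5, 2000 variable genes, 30 components, 15 neighbours, Leiden resolution 1, no integration) with the 10 genes withheld. Of 27 clusters 22 were named from marker lists: at least 3 list genes in at least 10% of cells, a mean log2 fold of at least 0.5 and at least 20 cells, a second list below 45% of the best, and no lead by mitochondrial or rRNA-overlapping genes. The form of that rule was set after the clusters were seen.

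Counts were summed per class and library, for the 8 classes with at least 10 cells in every library, and tested in edgeR 4.0.16 under R 4.3.3 (TMM, filterByExpr, quasi-likelihood, adjusted p under 0.05). Printed CPM carry no TMM factor. DESeq2 1.42.0 and other settings were alternatives. The group test (in endothelial-like and fibroblast/tenocyte-like cells), the class contrast, the interaction and the sign-flip test were checked on simulated data. The members and lists were chosen with earlier results of these data known. All members are named in every class tested, and of each other list up to 4 genes with the smallest p among those called. Sequences are RefSeq's on GRCm38.p6.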

Additional observations from a re-analysis of the deposited data

Results flagged for a closer look

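Col18a1 stands out because its fold between CLL and SHAM differed between endothelial-like and fibroblast/tenocyte-like cells by 1.53 on the log2 scale, by the test of that difference. The call was lost without CLL replicate 1 and without CLL replicate 3. With libraries left out, the Col18a1 fold in endothelial-like cells ran from -0.225 to 0.478. Lamb1 is listed because every CLL library was higher than every SHAM library in endothelial-like cells, with a log2 fold of 0.515 there. That fold was not called (adjusted p = 0.493 by edgeR), on 66, 100 and 56 UMIs in CLL. The share of all genes higher without overlap was not counted. Every CLL library was lower for Lamb1 in myogenic-like cells, as for 22.5% of all genes, and in myofibre-like cells. In the latter Lamb1 passed the low-count filter only through its SHAM levels. The difference of endothelial-like from these 2 classes for Lamb1 was not tested, and the myofibre-like sums held 4, 14 and 5 Lamb1 UMIs in CLL. Every CLL library was also lower for Lamb1 in fibroblast/tenocyte-like cells, and there the difference from endothelial-like cells was tested and did not pass (0.77, adjusted p = 0.0684 by edgeR).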

How the results depend on the processing

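Over all kept cells the same 4 collagens were called in each of 12 other settings, and 1 gene was called without endothelial-like and mural-like cells. Over all values for single genes, 1452 kept their direction and side of the threshold, 84 became called, 51 lost a call and 88 changed sign. Small classes, shallow libraries and 3 libraries per group limit what could be detected, and the causes of the changes listed here were not tested.

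Counts of members called moved as follows. In fibroblast/tenocyte-like cells the count was 6, and 1, 0 and 2 within clusters 2, 7 and 11, with 3 to 7 when 1 library was left out. Of all genes 991 of 14020 were lower without CLL replicate 1 (3 members), and 1690 of 15405 without SHAM replicate 1 (7 members). In myogenic-like cells it was 3, with 5 at Leiden resolution 2, 8 within cluster 6, 0 within cluster 5 and 1 to 4 with 1 library left out. Of all genes resolution 2 called 749 lower and 642 higher of 11306. Without CLL replicate 3 (1 member) it was 107 lower and 69 higher of 10614. Without CLL replicate 2 (4 members) it was 639 lower and 615 higher of 12414. In dendritic-like cells it was 1, with 2 in cells of at least 1000 UMIs, 0 with doublets kept, 2 with members not withheld, 5 with no low-count filter, 2 without CLL replicate 2 and SHAM replicate 3, and 0 to 8 with 1 library left out. Of all genes those lower were, in the same order, 80 of 8178, 1 of 7473, 159 of 8096, 275 of 17480 and 34 of 8966. Without SHAM replicate 2 (8 members) they were 377 of 9220. In macrophage/monocyte-like cells it was 0, with 10 at resolution 2, 1 with members not withheld, 1 with no filter, 9 without CLL replicate 2 and SHAM replicate 3, and 0 to 10 with 1 library left out. Of all genes resolution 2 called 519 lower and 327 higher of 11218. Those lower were 260 of 11287 with members not withheld and 434 of 20560 with no filter. Without CLL replicate 2 and SHAM replicate 3 they were 570 of 11729. In glial-like cells it was 0, with 1 in DESeq2, 1 with doublets kept and 2 with no filter. Of all genes those lower were 28 of 5235, 12 of 5433 and 143 of 16597, in the same order. In myofibre-like cells it was 0, with 2 in DESeq2, 1 at resolution 2, 2 with members not withheld and 2 with no filter, and in mural-like cells 0, with 1 with no filter. Of all myofibre-like genes those lower were 5 of 1261, 117 of 2562, 41 of 2198 and 18 of 14104, in the same order. Of all mural-like genes 126 of 16576 were lower with no filter. The interaction called 1, with 2 under RLE factors, 2 in cells of at least 1000 UMIs and 0 to 1 with 1 library left out. Of all genes, cells of at least 1000 UMIs gave 80 higher and 100 lower of 13586. The endothelial-like share of member UMIs, CLL minus SHAM, was -32.2 percentage points, and -36.2 among named classes only.

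Replicate numbers were not treated as pairing the libraries: in no class were all 3 same-number correlations above 0.1. They came nearest in endothelial-like cells (0.140, 0.210 and 0.0607), where each number correlated best with itself. With the replicate number as a block, members called were 4 over all kept cells, 6 in fibroblast/tenocyte-like, 2 in myogenic-like and 0 in dendritic-like cells, and 4 in the interaction with a block by class. Of all genes those lower were 2966 of 16666, 1228 of 14532, 208 of 11419 and 28 of 8226 in the first 4. The interaction with that block called 235 higher and 617 lower of 13603. Col18a1 in endothelial-like cells was at 0.032 with the block.

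Log2 folds that changed sign were these. In endothelial-like cells Col18a1 (-0.002) was at 0.011 under RLE, 0.027 in DESeq2, 0.039 in cells of at least 1000 UMIs, 0.154 at resolution 2 and 0.075 with doublets kept, and Col15a1 and Col4a1 were at 0.106 and 0.026 at resolution 2. Within cluster 2 of the fibroblast/tenocyte-like cells the folds were 0.458 for Col15a1, 1.102 for Col4a1, 0.84 for Col4a2, 0.219 for Hspg2, 0.319 for Lama2, 0.229 for Lama4, 0.121 for Lamb1, 0.047 for Lamc1 and 0.041 for Nid1. Within cluster 7 they were 0.132 for Col15a1, 0.69 for Col4a1, 0.83 for Col4a2, 0.095 for Hspg2, 0.099 for Lama2 and 0.126 for Lamc1. With members not withheld, myogenic-like cells had Col18a1 at -0.161, Lama4 at 0.957 (adjusted p = 0.0308), Lamb1 at 0.168, Lamc1 at 0.03 and Nid1 at 0.563. Within cluster 5 they had Lama4 at 0.745, Lamb1 at 0.494, Lamc1 at 0.168 and Nid1 at 0.831. Also in myogenic-like cells, Hspg2 was at -0.007 in cells of at least 1000 UMIs, -0.005 at resolution 2, -0.022 with doublets kept and -0.119 within cluster 6, and Lama4 was at 0.007 with doublets kept. In glial-like cells Lamc1 was at -0.003 with no filter, -0.004 at resolution 2, -0.083 with doublets kept and -0.005 with members not withheld. In mural-like cells Lamb1 was at 0.004 under RLE and 0.003 in DESeq2. Over all kept cells Hspg2 was at -0.012 in cells of at least 1000 UMIs, and Lamc1 at 0.064 without vascular cells. Endothelial-like over fibroblast/tenocyte-like, Lama4 and Lamc1 were at -0.05 and -0.044 with no filter. Under RLE, Lama2 was at 0.028 in mural-like over fibroblast/tenocyte-like cells and Hspg2 at 0.031 in the interaction.

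With 1 library left out, or CLL replicate 2 and SHAM replicate 3 together, log2 folds ran from -0.113 to 0.081 (Hspg2), -0.115 to 0.039 (Lamc1) and -0.199 to 0.099 (Nid1) over all kept cells. In endothelial-like cells they ran from -0.225 to 0.478 (Col18a1) and -0.633 to 0.804 (Lama2). In mural-like cells they ran from -0.123 to 0.507 (Col18a1), -0.303 to 0.077 (Hspg2), -0.295 to 0.24 (Lama4), -0.176 to 0.047 (Lamb1) and -0.106 to 0.406 (Lamc1). In myogenic-like cells the ranges were -0.095 to 0.16 (Hspg2) and -0.948 to 0.411 (Lama4), and in glial-like cells -0.365 to 0.006 (Hspg2), -0.397 to 0.059 (Lama4), -0.198 to 0.14 (Lamc1) and -0.684 to 0.004 (Nid1). Between classes they were -0.12 to 0.193 (Lama4) and -0.031 to 0.144 (Lamc1) for endothelial-like over fibroblast/tenocyte-like cells, -0.24 to 0.168 (Lama2) and -0.291 to 0.021 (Lamc1) for mural-like over fibroblast/tenocyte-like cells, and -0.268 to 0.045 (Hspg2) for the interaction.

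Calls over all genes also moved. They were 6105 over all kept cells (4486 to 6157 over the alternatives), 3517 in fibroblast/tenocyte-like (78 within cluster 7 to 3811), 893 in myogenic-like (0 within cluster 5 to 1966 with members not withheld), 42 in endothelial-like (1 at resolution 2 to 238 with no filter), 0 in mural-like (0 to 166), 0 in myofibre-like (0 to 232), 37 in glial-like (0 to 260), 262 in macrophage/monocyte-like (0 without CLL replicate 3 to 1529 without CLL replicate 2) and 108 in dendritic-like cells (2 to 530). The interaction gave 267 (27 to 852), and the class contrasts 6038 (3182 to 7981), 3419 (1796 to 3892) and 3742 (2435 to 4415).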
